A study of Mus musculus with 4 samples.

Results

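The Reg (regenerating islet-derived) genes, which encode secreted proteins of the C-type lectin fold, were followed in mouse small intestinal (SI) organoids that carried a miR-181a-5p mimic. The 6 members, Reg1, Reg2, Reg3a, Reg3b, Reg3g and Reg4, were found by symbol among 55487 listed genes. Reg1 was chosen on its large fall between the groups compared here, so its values are a description without a test, and the other 5 members were chosen with it as its family. All 6 had whole-number expected counts in every library, and 5 of them passed the filter on low counts that left 17155 genes for testing. Reg2 had too few counts to test.

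The organoids were cultures of intestinal epithelium grown from mouse crypts in IntestiCult medium. They had been infected with a lentivirus that expresses either the miR-181a-5p mimic (2 libraries, replicates 3 and 4) or a miRNA mimic control (2 libraries, replicates 1 and 2), and puromycin at 2 μg/ml selected the infected organoids in both groups. The strain, sex and age of the mice are not given in the sources used here. Nor is it stated whether libraries of a group came from separate infections or cultures, so p-values measure the spread between these libraries, which may be technical. The level of the mature miRNA was not analysed here.

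Reg proteins were first found in regenerating and inflamed pancreas, and several are made in abundance by the intestinal epithelium. Reg3g and Reg3b are antibacterial lectins that act mainly on Gram-positive and on a broader range of bacteria, respectively, and help keep microbes away from the epithelial surface. Their transcription is induced by IL-22, which signals through the transcription factor STAT3, and by microbial products through MyD88. Reg4 is made by enteroendocrine and deep secretory cells, and Reg1 and Reg2 are known as secreted products of the exocrine pancreas and, for Reg1, of the gut epithelium.

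The sequence of the mimicked miRNA is shown because its seed sets which sites it can pair with. RefSeq gives mature mmu-miR-181a-5p as follows, 5′ to 3′, with the seed (bases 2 to 8) in capitals.
mmu-miR-181a-5p: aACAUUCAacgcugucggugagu
The site in an mRNA that matches all of bases 2 to 8 is TGAATGT, and sites that match fewer bases of the seed were not searched. TGAATGT was found 0 times in the 3′ UTR, the coding sequence or any annotated transcript of the 6 members and their paralog Reg3d. Among 3′ UTRs of all genes within 20% of each Reg gene's own 3′ UTR length, between 1.39% and 4.25% held it, so most 3′ UTRs of these lengths held none.

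Promoter sequences are shown for the 4 tested genes of the chromosome 6 cluster, all lower in both mimic libraries. They are the 250 bases before the RefSeq start in GRCm38.p6, on the strand of the gene, and capitals mark a match to TATAAA, the core TATA box, or to TTCNNNGAA, the palindrome bound by STAT factors. They lie at chr6:78425733-78425982 (plus strand) for Reg1, chr6:78380459-78380708 (plus) for Reg3a, chr6:78370635-78370884 (plus) for Reg3b and chr6:78468875-78469124 (minus) for Reg3g. RefSeq starts can differ from the gene bounds in the annotation used for the other coordinates.
Reg1: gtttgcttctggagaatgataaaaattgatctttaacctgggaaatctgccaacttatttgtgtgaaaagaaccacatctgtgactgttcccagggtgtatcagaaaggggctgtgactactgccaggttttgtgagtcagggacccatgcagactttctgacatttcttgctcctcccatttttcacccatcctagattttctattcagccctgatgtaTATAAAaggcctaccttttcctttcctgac
Reg3a: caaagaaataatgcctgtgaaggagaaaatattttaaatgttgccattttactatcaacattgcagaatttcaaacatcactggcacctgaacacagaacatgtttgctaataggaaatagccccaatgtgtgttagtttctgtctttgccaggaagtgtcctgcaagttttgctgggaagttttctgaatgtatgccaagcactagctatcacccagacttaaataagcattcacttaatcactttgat
Reg3b: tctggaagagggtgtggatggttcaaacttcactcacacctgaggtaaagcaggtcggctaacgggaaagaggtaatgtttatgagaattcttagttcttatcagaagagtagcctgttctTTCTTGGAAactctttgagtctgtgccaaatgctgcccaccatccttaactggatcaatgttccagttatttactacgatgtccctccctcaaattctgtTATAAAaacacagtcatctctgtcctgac
Reg3g: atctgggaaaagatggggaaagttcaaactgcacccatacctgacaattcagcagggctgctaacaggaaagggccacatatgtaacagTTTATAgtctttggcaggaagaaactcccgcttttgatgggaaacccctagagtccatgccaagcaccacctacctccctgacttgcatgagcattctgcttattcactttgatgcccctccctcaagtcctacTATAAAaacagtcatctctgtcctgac
Both strands of the promoters of the 6 members and Reg3d were searched. TATAAA stood in 4 of the 7, with its first base at -30 in Reg1 and Reg2, -29 in Reg3b and -27 in Reg3g, and Reg3g held a further match at -161 on the opposite strand. By comparison, 12.4% of 32851 promoters of the same length held it. The STAT palindrome stood in Reg3b at -129 and in Reg3d at -238, against 7.02% of all promoters. The letters TTTATG, a core bound by the intestinal factors Cdx1 and Cdx2, were found in Reg3b (10.8% of all promoters). The letters AGATAA, 1 of the forms bound by GATA factors, were found in Reg4 (9.99%), and CAAAGTCC, bound by Hnf4a, in 0 of the 7 (1.20%). Other forms of these sites were not searched, so the other promoters may hold them.

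Libraries held between 31104884 and 38111731 expected counts. Markers of the labelled epithelium were present. The 8 epithelial identity genes, Epcam, Cdh1, Krt8, Krt18, Krt19, Vil1, Cdx1 and Cdx2, were all tested and their summed level lay between 4347 and 4822 CPM (counts scaled to the TMM-corrected library total). The mesenchymal list summed to between 0.084 and 0.522 CPM and the leukocyte list to between 3.78 and 6.29 CPM, and Ptprc, the common leukocyte antigen, had 5 counts or fewer in each library. In whole cultures such as these, fewer cells of a type and less RNA per cell cannot be told apart.

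Compared per length, in TPM (a length-normalized abundance that sums to the same total in each library), Reg1 was the leading Reg transcript in control organoids and Reg4 in mimic organoids. The 6 genes together had 312.88 and 271.6 TPM in the control libraries and 109.61 and 69.43 TPM in the mimic libraries. Reg1 made up 42.6% and 55.4% of that sum in control organoids, against 5.14% and 3.21% in mimic organoids. Without Reg1 the sums were 179.67 and 121.17 TPM in control organoids, against 103.98 and 67.2 TPM in mimic organoids, so the lowest control library stayed above the highest mimic library. Within the family, Reg4 took 23.2% and 20.9% of the TPM in control organoids, against 64.2% and 60.0% in mimic organoids. The share of Reg3a lay between 14.0% and 15.3% in all 4 libraries. These shares depend on a sum that fell with Reg1, the gene picked for its fall. Reg4 itself was at 72.5 and 56.8 TPM in control organoids, against 70.4 and 41.7 TPM in mimic organoids. Reg3a itself was at 43.65 and 41.5 TPM against 16.4 and 10.1 TPM. In the controls the order was Reg1, then Reg4, then Reg3a and Reg3g, then Reg3b and Reg2, and Reg3g stood above Reg3a in replicate 1 and below it in replicate 2. In both mimic libraries Reg1 came after Reg4, Reg3a and Reg3g and before Reg3b and Reg2. Reg3a and Reg3g changed places between the libraries of each group, so their order was not larger than the spread between replicates.

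**Figure D1:**
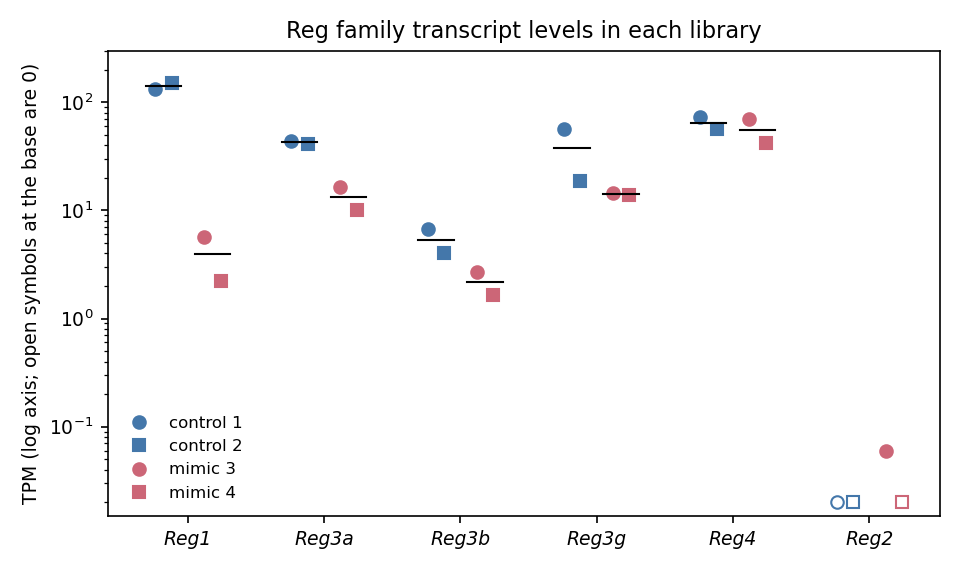
TPM of the 6 Reg genes (log axis) in the 2 mimic control libraries (blue) and the 2 miR-181a-5p mimic libraries (red), with black bars at the group means and open symbols for values of 0. Reg1 lay at 133 and 150 TPM in control organoids, against 5.63 and 2.23 TPM in mimic organoids, whereas the libraries of Reg4 overlapped.

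**Figure D2:**
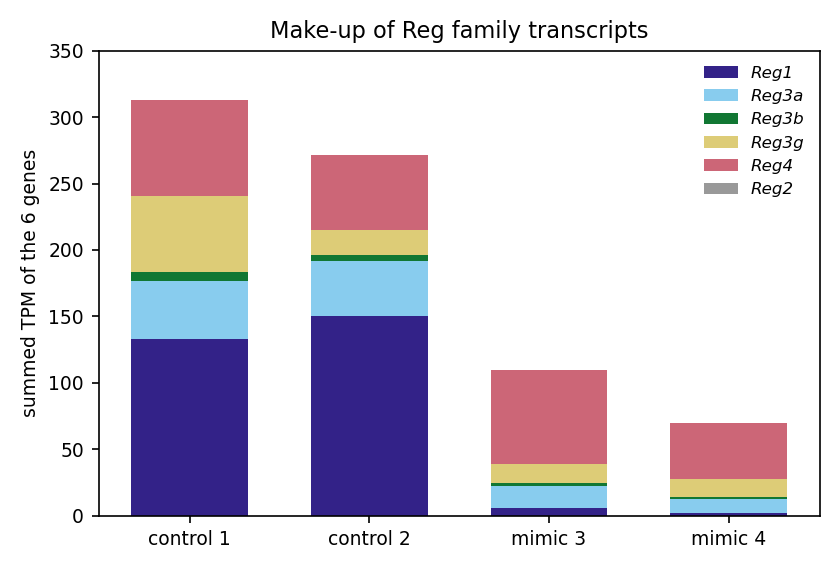
Summed TPM of the 6 Reg genes in each library, divided by gene. Reg1 was the largest portion in both control libraries and Reg4 in both mimic libraries.

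Reg1 (ENSMUSG00000059654, chr6:78422711-78428667 in GRCm38, plus strand) had 2904 and 2616 counts in control organoids, against 100 and 41 counts in mimic organoids. Scaled to library size, these were 75.7 and 84.4 CPM against 3.19 and 1.15 CPM. Both mimic libraries lay far below both controls, and the controls were close to each other. The means were 80.1 ± 6.13 and 2.17 ± 1.44 CPM (SD, n = 2), a fitted log2 fold change of -5.22 (standard error, SE, 0.36), or 37.4-fold lower. Leaving out each library in turn gave log2 fold changes between -6.11 and -4.64. Within the mimic group replicate 3 was 2.77-fold above replicate 4.

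The Reg3 genes, the antibacterial branch of the family, were each lower in both mimic libraries than in both controls, but only Reg3a passed the test. Of the 4 tested members other than Reg1, 1 was called lower (by edgeR's quasi-likelihood test, adjusted p below 0.05 and at least 2-fold), while 1.47% of all tested genes were called lower. The count called higher was 0, with 0 at an unadjusted p under 0.05 as well and 0 by DESeq2 or edgeR's exact test, against 0.589% of all tested genes by the main test. In 3 of the 4, Reg3a, Reg3b and Reg3g, both mimic libraries lay below both controls, which was so for 29.5% of all tested genes. The same 3 had an unadjusted p under 0.05, as did 24.8% of all tested genes.

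Reg3a (ENSMUSG00000079516, chr6:78380709-78383827, plus strand), a secreted lectin of the gut and pancreas, had 1034 and 785 counts in control organoids, against 316 and 202 in mimic organoids. After scaling to library size the controls were nearly equal, and both mimic libraries were well below them. Its level fell from 26.1 ± 1.16 to 7.88 ± 3.12 CPM (SD, n = 2), 3.33-fold lower, with a log2 fold change of -1.74 (SE 0.24, 95% interval -2.31 to -1.17) and an adjusted p of 0.0163 by edgeR's quasi-likelihood test. It was called without each of the 4 libraries in turn, with log2 fold changes between -2.20 and -1.37. On the TPM scale limma gave adjusted p = 0.0519 for log2(TPM + 1), 0.0638 for log2(TPM + 0.1) and 0.314 for log2(TPM + 1) with no filter on low values, so the call was lost there.

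Reg3b (ENSMUSG00000071356, chr6:78370657-78373466, plus strand), an antibacterial lectin, was the least abundant tested member per length (TPM) in the controls and had 149 and 72 counts there, against 49 and 31 in mimic organoids. The groups did not overlap, but the controls differed from each other by more than the lower control differed from the higher mimic library. The means were 3.10 ± 1.11 and 1.22 ± 0.49 CPM (SD, n = 2). The log2 fold change of -1.38 (SE 0.38, 95% interval -2.27 to -0.49) had an adjusted p of 0.0884 by edgeR's quasi-likelihood test and was not called. It was called by edgeR's exact test (adjusted p = 0.0234) and without control replicate 2 (adjusted p = 0.0158, edgeR's quasi-likelihood test). These settings also called more genes lower in all, 3.09% by the exact test and 3.62% without control replicate 2.

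Reg3g (ENSMUSG00000030017, chr6:78466269-78468872, minus strand), the lectin that binds peptidoglycan of Gram-positive bacteria, had 1298 and 337 counts in control organoids, against 267 and 272 in mimic organoids. Control replicate 1 stood apart at 33.9 CPM, 3.11-fold above control replicate 2 at 10.9 CPM, while the mimic libraries lay close together at 8.53 and 7.64 CPM. The means were 22.4 ± 16.2 and 8.08 ± 0.63 CPM (SD, n = 2), and the log2 fold change of -1.48 (SE 0.45, 95% interval -2.52 to -0.43) had an adjusted p of 0.107 by edgeR's quasi-likelihood test. It rested on control replicate 1, since without that library the log2 fold change was -0.44, and without control replicate 2 it was -2.06 (adjusted p = 9.91e-05, edgeR's quasi-likelihood test). By edgeR's exact test on all libraries it was called, with an adjusted p of 0.019.

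Reg4 (ENSMUSG00000027876, chr3:98222156-98236748, plus strand), the member that lies apart from the cluster, had 2181 and 1363 counts in control organoids, against 1720 and 1059 in mimic organoids. The groups overlapped, with mimic replicate 3 above control replicate 2. The means were 50.4 ± 9.12 and 42.3 ± 17.8 CPM (SD, n = 2), and the log2 fold change was -0.25 (SE 0.26) with an adjusted p of 0.585 by edgeR's quasi-likelihood test. The 95% interval from -0.87 to 0.36 holds no change, and also a decrease or a smaller increase, both short of 2-fold. Within each library, TPM of Reg3a relative to Reg4 was 0.602 and 0.731 in control organoids, against 0.233 and 0.242 in mimic organoids.

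Reg2 (ENSMUSG00000023140, chr6:78395623-78408106, plus strand), the closest relative of Reg1, had 0 counts in both controls and in mimic replicate 4 and 1 count in mimic replicate 3, and a count of 0 allows up to 3 counts per library. No fold is given. Reg3d (ENSMUSG00000068341, chr6:78375874-78378865, minus strand), a paralog that is not a member, had 6 and 8 counts in control organoids, against 2 and 3 in mimic organoids, and was not tested.

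**Figure D3:**
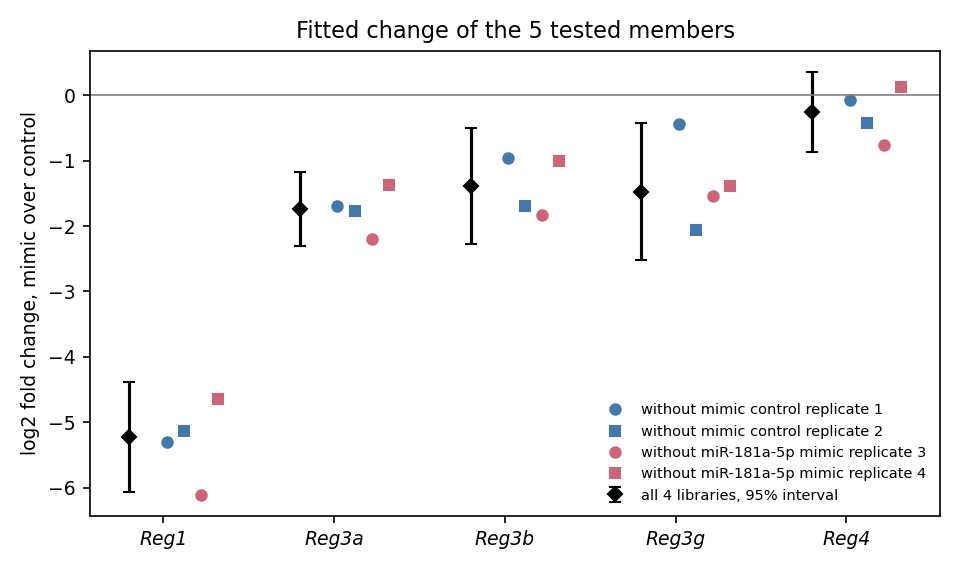
Fitted log2 fold change, mimic over control, of the 5 tested members with all 4 libraries (black diamonds, 95% interval) and with each library left out (coloured symbols). Reg3g ranged from -2.06 to -0.44 and Reg4 from -0.75 to 0.13, whereas Reg3a stayed at or below -1.37 and Reg1 at or below -4.64.

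Reads could in principle be divided among paralogs, so the sequences of the 7 Reg genes were compared. Coding identity was highest between Reg1 and Reg2 at 78.7%, followed by 75.9% for Reg3b and Reg3g, 73.8% for Reg3a and Reg3b and 72.9% for Reg3a and Reg3g. Reg4 was the most distant, at 49.7% to 54.5% with the others. Of 7446 windows of 100 bases, the read length, along their annotated transcripts, 0 occurred in another gene of the annotation. An error-free read of this length from a Reg gene therefore matched no other annotated gene, and the counts of the members were whole numbers in every library.

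Of the 7 genes, 6 form a cluster of 98.2 kb on chromosome 6, in the order Reg3b, Reg3d, Reg3a, Reg2, Reg1 and Reg3g, with Reg4 alone on chromosome 3. Among tested genes of the cluster, Reg3b had a log2 fold change of -1.38, Reg3a -1.74, Reg1 -5.22 and Reg3g -1.48. Reg1 was picked for its large fall, so the smaller changes of the genes around it follow in part from that choice. Reg2, which lies next to Reg1, was not tested. Another 8 genes are annotated within 500 kb on each side of the cluster, and 0 of them had enough counts to be tested, 5 of them with no count in any library. Ctnna2, the alpha-catenin gene of neurons, had at most 1 count per library.

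**Figure D4:**
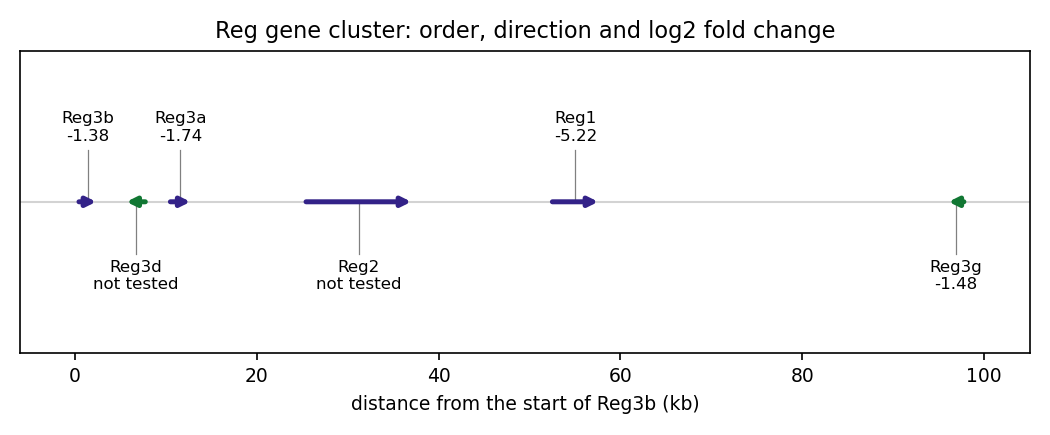
Order of the 6 clustered Reg genes by distance (kb) from the start of Reg3b, with arrows for the direction of transcription and the log2 fold change (mimic over control) of tested genes. The 4 tested genes were lower, with Reg1, picked for its large fall, the lowest at -5.22.

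The 5 tested genes outside the family whose profile over the 4 libraries was nearest to Reg1 (Euclidean distance of centred log2 CPM, at least 100 counts in each control) were Fras1, Mmp14, Pdk4, Pdx1 and Tcaf2. They were picked by the same contrast as Reg1, and no test is given. Fras1, a basement membrane protein, was the nearest at a distance of 1.24, with 693 and 1206.8 counts in control organoids, against 20 and 23 in mimic organoids. Mmp14, a membrane-bound matrix metalloproteinase, had 983 and 736 against 11 and 24 counts (distance 1.72), and Pdk4, a kinase that restrains pyruvate oxidation, had 302 and 119 against 5 and 9 (1.83). Pdx1, a transcription factor of duodenum and pancreas, had 338 and 413 counts against 41 and 38 (2.36). Tcaf2, a regulator of a TRP channel, had 487 and 282 against 29 and 43 counts (2.46).

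Genes of the pathway that is known to induce Reg3 genes were not called. Over all tested genes, edgeR's quasi-likelihood test called 1.47% lower and 0.589% higher, and 24.8% had an unadjusted p under 0.05. For lists this short a count of 0 called is close to those shares, here and in the lists below. Of the 18 genes from cytokine receptors to STAT3, 16 were tested, and 0 were called by edgeR's quasi-likelihood test, by DESeq2 or by edgeR's exact test, with 2 lower and 2 higher at an unadjusted p below 0.05. Their median log2 fold change was -0.02, beside -0.01 for all tested genes. Stat3 itself was at 62.7 and 66.2 CPM in control organoids, against 62.9 and 71.2 CPM in mimic organoids, a log2 fold change of 0.06 (SE 0.11, adjusted p = 0.773 by edgeR's quasi-likelihood test). Il22ra1, the epithelial IL-22 receptor chain, was at 21.5 and 19.0 CPM against 26.0 and 19.7 CPM, with overlapping groups. Socs3, a feedback target of STAT3, was at 15.2 and 12.3 CPM against 10.7 and 10.7 CPM (log2 fold change -0.36, adjusted p = 0.208, edgeR's quasi-likelihood test).

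Of 9 cytokines that can induce Reg genes, Lif and Il18 had more than 100 counts in every library. Il22, Il17a and Il17f had 0 counts in all 4 libraries, and 3 of the 9 could be tested, with 0 called by edgeR's quasi-likelihood test, DESeq2 or edgeR's exact test and 1 lower at an unadjusted p under 0.05. That gene was Lif, an IL-6 family cytokine, which had 497 and 387 counts in control organoids, against 234 and 294 in mimic organoids, with a log2 fold change of -0.69 (SE 0.15, adjusted p = 0.0529 by edgeR's quasi-likelihood test). Extl3, described as a receptor of Reg proteins, was at 42.3 and 44.1 CPM in control organoids, against 52.6 and 54.3 CPM in mimic organoids (log2 fold change 0.31, adjusted p = 0.119).

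Other targets of IL-22 and STAT3 were either too low to test or not called by the main test, which called few genes at all. Of 20 such genes 9 were tested and 5 had 0 counts in every library, among them Saa1, S100a8 and S100a9. By edgeR's quasi-likelihood test 0 were called, with 1 lower and 1 higher at an unadjusted p below 0.05, and their median log2 fold change was -0.04. DESeq2 and edgeR's exact test each called 1 higher, Nos2 (adjusted p = 0.0353 and 0.0243, respectively), and 0 lower. Pigr, the receptor that carries IgA across the epithelium, was at 2140 and 1882 CPM in control organoids, against 1531 and 1319 CPM in mimic organoids, without overlap (log2 fold change -0.50, SE 0.14, adjusted p = 0.0921 by edgeR's quasi-likelihood test). Muc1, a membrane mucin, had 17 and 7 counts against 1 and 2 and was not tested. Nos2, the inducible nitric oxide synthase, was at 1.56 and 1.06 CPM in control organoids, against 2.20 and 5.06 CPM in mimic organoids, without overlap and higher with the mimic (log2 fold change 1.46, SE 0.43, adjusted p = 0.101 by edgeR's quasi-likelihood test).

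Of 17 other secreted antimicrobial genes, 9 were tested and 0 were called by edgeR's quasi-likelihood test, with 1 lower and 1 higher at an unadjusted p below 0.05 and a median log2 fold change of -0.12. DESeq2 and edgeR's exact test each called 1 lower, Ang4 (adjusted p = 0.00267 and 0.00209, respectively), and 1 higher, Nos2. Ang4, a Paneth cell ribonuclease with antibacterial activity, was at 15.9 and 10.7 CPM in control organoids, against 7.02 and 6.10 CPM in mimic organoids, without overlap (log2 fold change -1.03, SE 0.22, adjusted p = 0.0512 by edgeR's quasi-likelihood test). Lyz1, the Paneth cell lysozyme, was at 219.6 and 169 CPM against 118 and 208 CPM, and its groups overlapped.

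Markers of Paneth cells, a source of antimicrobial proteins at the crypt base, were set beside the Reg3 genes. Of 17 genes 14 were tested, 11 of them with a negative log2 fold change, and the median was -0.64. By edgeR's quasi-likelihood test 0 were called, with 3 lower and 0 higher at an unadjusted p below 0.05. DESeq2 and edgeR's exact test each called 1 lower, Ang4. Without control replicate 2, 7 were called lower, where the share of all tested genes called lower also rose from 1.47% to 3.62%. The list summed to 1089 and 732 CPM in control organoids, against 684 and 886 CPM in mimic organoids, so the groups overlapped. Control replicate 1, the library highest in Reg3g, was also the highest for 9 of the 10 alpha-defensins of the list, with Defa17 at 199.7 CPM there and between 67.3 and 79.3 CPM in the other libraries. Defa30 was at 27.4 CPM in that library and between 4.94 and 6.96 CPM elsewhere. Defa20 was the exception, at 1.20 CPM in control replicate 1 and 2.11 CPM in mimic replicate 4. Defa3 was nearly as high in mimic replicate 3 (7.25 CPM) as in control replicate 1 (8.42 CPM). Of the other genes of the list, Lyz1, Mmp7 and Ang4 were also highest in control replicate 1, whereas Itln1, Wnt3, Pla2g2a and Mptx2 were not. Itln1 was at 380 CPM in control replicate 1 and 476 CPM in mimic replicate 4, and Wnt3 at 4.85 and 5.39 CPM. Being highest in control replicate 1 was not particular to Paneth cell genes. The stem cell list summed to 1549 CPM there and between 989 and 1370 CPM elsewhere, and the enteroendocrine sum was also highest there. The goblet cell and enterocyte sums were not. The share of all tested genes highest in that library was not counted. Counts of Defa17 and Defa30 were not whole numbers in any library, and near-identical copies of them are known. Each of the 10 alpha-defensins had a fractional count in at least 1 library, so reads may be divided among them. Their values are therefore not independent of each other. Defa5 and Defa21 had 0 counts in control replicate 2 and mimic replicate 3. The part of Paneth cell content in the Reg3g values was not tested.

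By the main test 0 markers of enteroendocrine cells, which make Reg4, were called, a count close to the share of all tested genes. All 12 were tested, with 0 called by edgeR's quasi-likelihood test and DESeq2, 1 called higher by edgeR's exact test, 2 higher at an unadjusted p under 0.05 and a median log2 fold change of -0.14. Their sum was 658 and 427 CPM in control organoids, against 546 and 496 CPM in mimic organoids, overlapping as Reg4 did. Of 10 goblet cell genes, 9 were tested and 0 called by edgeR's quasi-likelihood test, DESeq2 or edgeR's exact test (2 lower and 3 higher at an unadjusted p under 0.05), with a median of 0.15.

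Because Reg1 and Reg2 are known from the exocrine pancreas, pancreatic acinar genes were examined as well. Of 11 genes, 7 had 0 counts in every library (Cpa1, Cpb1, Cela2a, Pnlip, Prss1, Prss2 and Amy2a5), and Cel had at most 4. Ctrb1, a chymotrypsinogen, had 2677 and 1715 counts in control organoids, against 669 and 809 in mimic organoids, and fell by a log2 fold change of -1.51 (SE 0.14, adjusted p = 0.00506 by edgeR's quasi-likelihood test). Clps, the colipase, had 403 and 245 against 144 and 169 counts (log2 fold change -0.98, adjusted p = 0.047), short of a 2-fold change. The list summed to 85.5 and 69.1 CPM in control organoids, against 30.1 and 32.9 CPM in mimic organoids. Most of that sum was Ctrb1 alone, at 69.8 and 55.3 CPM against 21.4 and 22.7 CPM. Cela1, an elastase gene, had 195 and 176 against 128 and 192 counts, with overlapping groups (log2 fold change -0.18, adjusted p = 0.647 by edgeR's quasi-likelihood test).

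The 14 lists were chosen with earlier results of these data known, so shares over them are a description. Of their 145 genes 99 were tested. By edgeR's quasi-likelihood test 3 were called lower, 3.03% of those tested, beside 1.47% of all tested genes. The count called higher was 0, beside 0.589% of all tested genes. At an unadjusted p below 0.05 there were 17 lower and 14 higher, 31.3% of those tested beside 24.8% of all tested genes. DESeq2 called 4 lower and 1 higher, and edgeR's exact test 4 lower and 2 higher. Besides Ctrb1, the genes called lower were Anpep, the brush border aminopeptidase N, and Lgr5, a receptor that marks intestinal stem cells. Anpep was at 1851 and 1245 CPM in control organoids, against 289 and 412 CPM in mimic organoids (log2 fold change -2.14, SE 0.23, adjusted p = 0.00812 by edgeR's quasi-likelihood test). Lgr5 was at 401 and 312 CPM against 98.0 and 176 CPM (log2 fold change -1.38, SE 0.26, adjusted p = 0.0369 by the same test). The call of Anpep was lost in the 3 limma settings on TPM, and that of Lgr5 there and also with no filter on low counts and with the robust quasi-likelihood test. Ctrb1 was called by limma with log2(TPM + 1) but not with log2(TPM + 0.1) or with no filter on low TPM. The medians of their lists were -0.29 for 12 enterocyte genes and 0.11 for 6 stem cell genes.

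**Figure D5:**
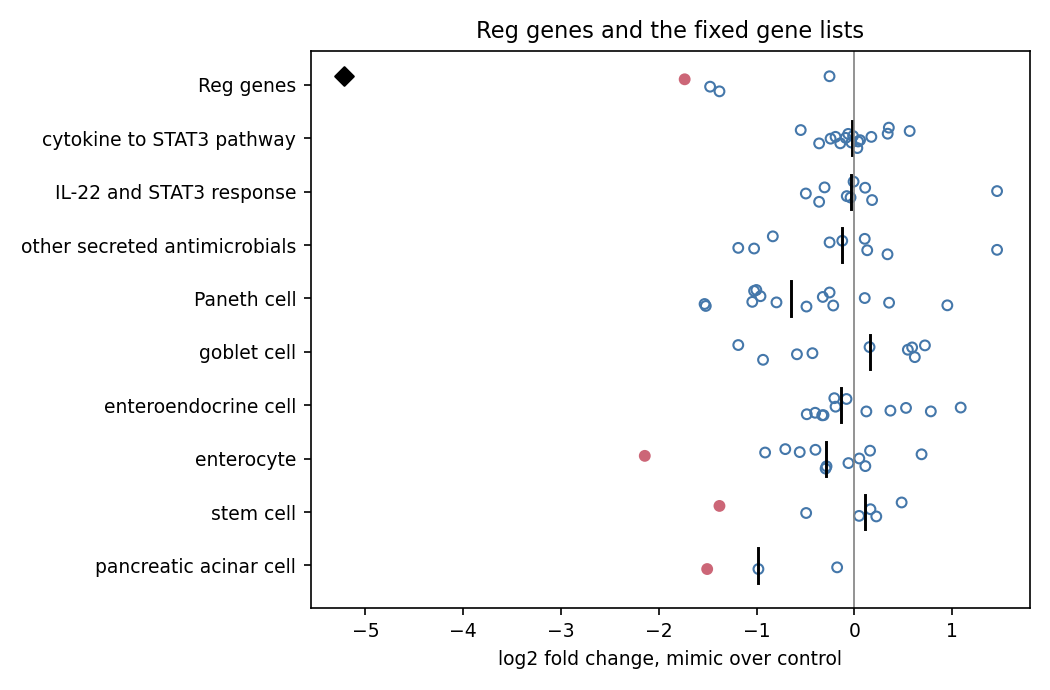
Log2 fold change, mimic over control, of tested Reg genes and of tested genes in 9 fixed lists. Filled red points passed adjusted p under 0.05 and 2-fold, and open points did not. The black diamond is Reg1, which was picked on this contrast, so no test of it is given. Black bars are list medians, which lay between -0.98 for 3 acinar genes and 0.15 for goblet cell genes.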

How the data were processed

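RNA-seq libraries of mouse SI organoids with a miRNA mimic control (n = 2) or a miR-181a-5p mimic (n = 2) were analysed. The authors trimmed reads with Trimmomatic and quantified them with RSEM on GRCm38, and deposited expected counts, not normalized, and TPM per gene. The supplemental methods describe ribosomal RNA depletion, the labels poly(A) enrichment. Both tables held columns of no sample of the series (3 in each), which were not used. Expected counts (31104884 to 38111731 per library) were rounded and compared with edgeR 4.0.16 under R 4.3.3 (legacy = FALSE for the quasi-likelihood fit, filterByExpr, TMM, glmQLFit, glmQLFTest, Benjamini-Hochberg over 17155 genes). Calls needed an adjusted p under 0.05 and a 2-fold change. CPM used TMM-scaled totals. With 2 against 2 libraries, replicate spread (common coefficient of variation 0.13) limits precision more than depth does for genes with high counts. For low counts, such as those of Reg3b in mimic organoids (49 and 31), counting error limits it as well. Steps were tested on simulated data. Coordinates and transcripts came from GENCODE mouse release M21, and promoters and the miRNA from RefSeq. Alternatives were DESeq2 1.42.0, edgeR's exact, robust and legacy tests, RLE or no factors, no filter, limma 3.58.1 on log2(TPM + 1) or log2(TPM + 0.1) for genes of 1 TPM or more in 2 libraries, and unfiltered (fold changes there understate low genes), and leaving out each library. Named genes were the members, other Reg genes, neighbours within 500 kb, called genes of the lists and the 5 genes nearest to Reg1 (0.01 CPM added before the log). Further genes of the lists, such as Stat3, Pigr and Ang4, were named after their values were seen. The members and lists were chosen with earlier results of these data known. Plots were drawn with matplotlib 3.10.9.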

Additional observations from a re-analysis of the deposited data

How the results depend on the processing

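No paired analysis was possible because the groups share no replicate numbers. Of the 4 tested members other than Reg1, the number called was 1 in the main test, 3 by edgeR's exact test, 0 by limma on log2(TPM + 1), log2(TPM + 0.1) and log2(TPM + 1) with no filter, and between 1 and 3 when each library was left out, with 3 (Reg3a, Reg3b and Reg3g) without control replicate 2. Genes of the lists called lower numbered 3 in the main test, 1 with log2(TPM + 1), 0 with log2(TPM + 0.1) and 0 with no TPM filter, and between 4 and 13 with a library left out (13 without control replicate 2, 5 without control replicate 1 and 5 without mimic replicate 3), and 2 both with no filter on low counts and in the robust test. Genes called higher numbered 0 in the main test, 1 by DESeq2, 2 by edgeR's exact test and between 1 and 2 with a library left out. All tested genes called lower numbered 253 in the main test, 530 by the exact test, 661 without control replicate 2, 230 without control replicate 1 and 166 without mimic replicate 3. The cause was not tested. The log2 fold change of Reg4 lay between -0.75 and 0.13 with a library left out, turned to 0.13 without mimic replicate 4, and was negative in 13 of 14 alternatives, and those of Reg1, Reg3a, Reg3b and Reg3g were negative in all 14. When a library was left out, the lone sample of its group was assumed to vary like the other group. The legacy quasi-likelihood fit was chosen after seeing the data. Depth limits Reg2 and Reg3d, the spread between 2 libraries per group limits Reg3g, and both limit Reg3b.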
